A study of Mus musculus with 4 samples.

Results

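A set of 9 genes that control clotting and the removal of clots within tissues was followed in kidney and heart of mice with sepsis, with and without melatonin (MLT). They were selected by symbol, through the Ensembl identifiers in the count files: F3, Thbs1, Vwf, Thbd, Procr, Tfpi, Plat, Plau and Plaur, 9 of the 55401 genes counted. The methods describe male C57BL/6 mice that were 8 weeks old when obtained. All groups had undergone cecal ligation puncture (CLP), in which gut bacteria leak into the abdomen and cause sepsis. The CLP + MLT group had drunk water with melatonin at 25 μg/ml for 14 days before the operation, and kidneys were taken 24 h after it. The methods describe neither the hearts nor the drinking water of the CLP group, and the number in the label "CLP+MLT4" is not explained there. There was 1 library for each group and tissue, and the sources used here do not say how many mice were behind it. No difference between libraries could therefore be set against the spread between mice, and no test was made. None of the 4 libraries came from the sham groups, so no level could be set against mice without CLP.

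Blood clots when tissue factor (encoded by F3), a protein of cells outside the vessel lumen, meets plasma clotting factors, and thrombin then turns fibrinogen into fibrin. The vessel wall holds this back with tissue factor pathway inhibitor (Tfpi), with thrombomodulin (Thbd), which binds thrombin, and with the endothelial protein C receptor (Procr), which helps thrombomodulin to activate protein C. Fibrin is dissolved by plasmin, which the proteases tPA (Plat) and urokinase (Plau) release from plasminogen. Urokinase binds to a receptor on the cell surface (Plaur). In sepsis this balance often shifts towards clotting, and the kidney is known for making and excreting urokinase.

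Between 15883057 and 22927905 reads per library were counted on genes, and mitochondrial genes took between 14.8% and 36.0% of them. Levels are given as CPM, the count of a gene relative to the library's total and put on a fixed scale, after TMM scaling within each tissue. Heart and kidney thus shared no common TMM scale, and folds or percentages between the tissues are approximate. In these units, 1 count was worth between 0.0408 and 0.0649 CPM. Each change is a log2 ratio, CLP + MLT divided by CLP, followed in brackets by a 95% exact Clopper-Pearson interval, which covers counting error only. The kidney libraries carried tubule markers such as Kap (448683 and 439585 counts), the heart libraries cardiomyocyte markers such as Myh6 (208975 and 158174 counts). The 8 cardiomyocyte markers summed to 33010 CPM in the CLP heart and 21321 CPM in the CLP + MLT heart, a log2 ratio of −0.63. Of them 3 were lower by 1.5-fold, 0 higher and none at 0, and their part in the heart differences was not tested. Tubule markers were also found in the heart libraries, at a median of 1.54% of their kidney level in CLP and 3.27% in CLP + MLT over 9 genes.

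All 9 genes had a mean of at least 10 counts in both tissues. In the kidney, Thbd, Tfpi and Plaur were at least 1.5-fold lower in the CLP + MLT library, and none of the 9 was at least 1.5-fold higher. Of all 16932 genes past the same filter in kidney, 22.6% differed at least 1.5-fold, with 11.6% lower and 11% higher. In the heart, Plau and Thbs1 were at least 1.5-fold higher and Procr was lower, beside 23.5% of 15871 genes in either direction, 10.9% higher and 12.6% lower. A count of 3 out of 9 is near these shares and says nothing particular about the set. With the whole counting interval beyond 1.5-fold, 0 of the 9 genes passed in kidney (6.97% of all genes, 3.57% higher and 3.4% lower) and 2, Plau and Thbs1, were higher in heart (2.89% of all genes, or 7.35% in either direction). The median log2 ratio of the 9 genes was −0.46 in kidney and 0.02 in heart, beside 0.0029 and 0.0023 for all genes. Scaling by library size only moved the kidney median of all genes to −0.19, and then 26.6% of the genes past 1.5-fold were higher in CLP + MLT, against 48.6% with TMM. Under that scaling 5 of the 9 genes were lower by 1.5-fold in kidney, Plat (−0.69) and Procr (−0.65) joining the 3 above. Of all 16932 genes, 3172 were lower and 1149 higher under it, so the 5 include the shift of all genes.

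**Figure D1:**
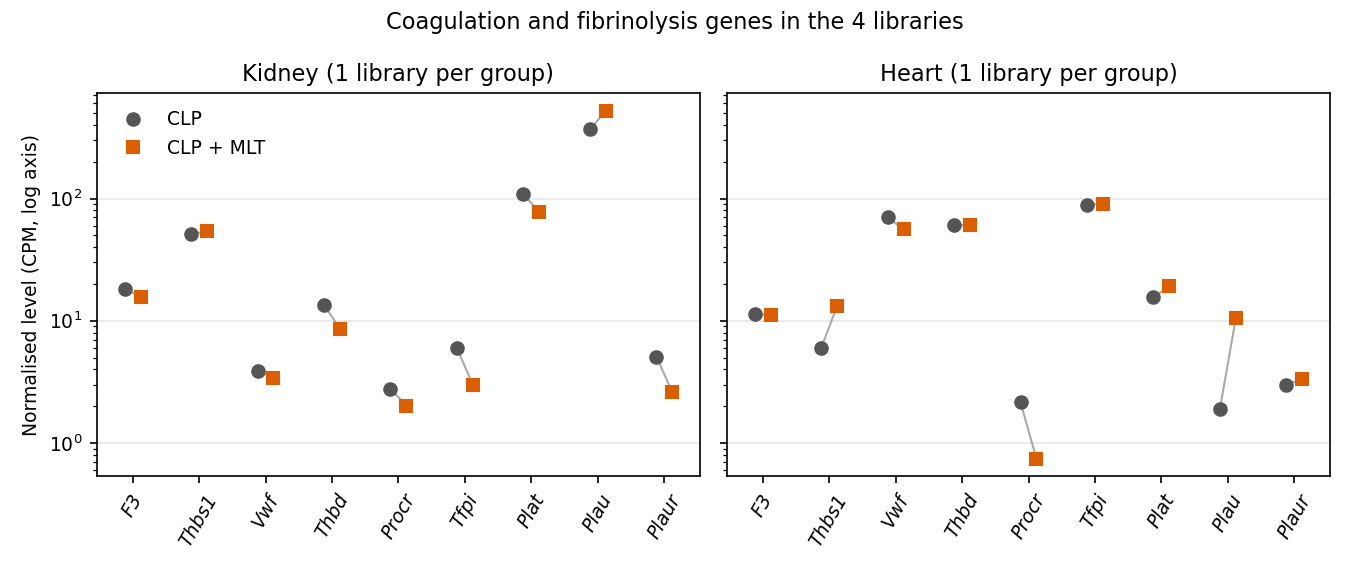
Level of each gene (CPM, log axis) in the kidney libraries on the left and the heart libraries on the right. Circles are CLP and squares CLP + MLT, 1 library each, without error bars. Plau lies at 368 and 522 CPM in kidney, and Tfpi at 89.3 and 90.7 CPM in heart, where its points overlap.

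Levels of different genes can be compared only per length of exon, as RPKM, which is CPM divided by the exon length in kilobases. In the kidney the order was the same in both libraries. Plau led with 155 RPKM in CLP and 220 RPKM in CLP + MLT. It was followed by Plat (17.4 and 12.3 RPKM), Thbs1 (8.44 and 8.85 RPKM) and F3 (7.18 and 6.25 RPKM). The urokinase gene thus stood far above every other member. Thbd had 3.59 and 2.32 RPKM, and Plaur, Procr, Tfpi and Vwf lay between 0.210 and 1.95 RPKM. Plaur and Procr could not be ranked in CLP + MLT, with 0.993 and 0.991 RPKM.

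In the heart the vessel wall genes led. Tfpi had 16.3 RPKM in CLP and 16.6 RPKM in CLP + MLT, and Thbd had 16.3 and 16.2 RPKM, so these neighbours did not differ. F3 (4.47 and 4.45 RPKM) and Vwf (4.36 and 3.49 RPKM) came next in the CLP heart. The lowest in the CLP heart were Plaur (1.15 RPKM), Procr (1.06 RPKM), Thbs1 (0.980 RPKM) and Plau (0.803 RPKM). Plau was last in CLP and at rank 3 in CLP + MLT (4.49 RPKM), the only member to move by more than 2 places. With 1 library per group, the spread between mice around each place is unknown.

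F3 (ENSMUSG00000028128.13, chromosome 3 from 121723537 to 121735048, mm10) encodes tissue factor, which starts clotting. It had 445 counts in the CLP kidney and 243 in the CLP + MLT kidney, 18.1 and 15.8 CPM. The log2 ratio of −0.20 (−0.43 to 0.03) was not detectably different from 0 at this depth. With scaling by library size only it was −0.40 (−0.63 to −0.17), an interval below 0. In the heart F3 had 184 and 182 counts, 11.3 and 11.2 CPM, with a log2 ratio of −0.01 (−0.31 to 0.30). With TMM scaling, the libraries of both tissues thus lay close together for the gene that starts the cascade.

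Thbs1 (ENSMUSG00000040152.8, chromosome 2 from 118111876 to 118127133) encodes thrombospondin, a matrix protein also released by platelets. In the kidney it had 1258 and 828 counts, 51.3 CPM in CLP and 53.8 CPM in CLP + MLT, a log2 ratio of 0.07 (−0.06 to 0.20), which was −0.13 with scaling by library size only. In the heart it went from 97 to 213 counts, 5.95 and 13.2 CPM, which was 2.20-fold higher, a log2 ratio of 1.14 (0.79 to 1.51). The heart minus kidney difference was 1.07 (0.70 to 1.44) on the log2 scale, from counting error only. The noncoding RNA Gm29233 overlaps exons of Thbs1 on the other strand and had between 1 and 51 counts, and whether strand was used in the counting is not stated in the sources. The sum of the platelet list was nearly the same in heart, 38.0 and 38.4 CPM over 10 genes, but single genes scattered. Of 6 past the filter, 2 were higher by 1.5-fold (Ppbp 0.89 and Gp9 0.86) and 1 was lower (Gp1ba −1.52). Gp1bb was at 0 in all libraries. The mesothelium list went from 0.552 to 2.72 CPM in heart over 3 genes, of which Msln alone passed the filter (9 and 40 counts) and Lrrn4 was at 0. The part of these cells in the Thbs1 difference was not tested.

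Vwf (ENSMUSG00000001930.17, chromosome 6 from 125546774 to 125686679) encodes von Willebrand factor, which tethers platelets to the damaged vessel wall. It was scarce in kidney, with 96 and 52 counts, 3.91 and 3.38 CPM, a log2 ratio of −0.21 (−0.73 to 0.29). It was abundant in heart, with 1142 and 908 counts, 70.0 and 56.1 CPM. The heart ratio of −0.32 (−0.45 to −0.19) lay below 0 beyond counting error but within 1.5-fold. Per length, and without a scaling shared by the tissues, Vwf was 17.9 times as high in heart as in kidney under CLP. Under CLP + MLT it was 16.6 times as high.

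Thbd (ENSMUSG00000074743.4, chromosome 2 from 148404466 to 148408188), a gene of a single exon, encodes thrombomodulin. In the kidney it had 328 counts in CLP and 133 in CLP + MLT, 13.4 and 8.64 CPM, 1.55-fold lower. The log2 ratio was −0.63 (−0.93 to −0.34), so that the interval began within 1.5-fold. In the heart Thbd had 992 and 977 counts, 60.8 and 60.3 CPM, a log2 ratio of −0.01 (−0.14 to 0.12), and the CPM did not differ beyond counting error. The heart minus kidney difference was 0.62 (0.30 to 0.93).

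Tfpi (ENSMUSG00000027082.15, chromosome 2 from 84432855 to 84476775) encodes the inhibitor that blocks tissue factor with its partner factor VIIa. Its kidney counts were 146 in CLP and 46 in CLP + MLT, 5.95 and 2.99 CPM. That was 1.98-fold lower, a log2 ratio of −0.99 (−1.51 to −0.51), which could not be ranked against that of Plaur (−0.97). In the heart, where Tfpi was 15.0 times as high as in kidney under CLP, it had 1456 and 1469 counts, 89.3 and 90.7 CPM. The heart ratio was 0.02 (−0.08 to 0.13), and the heart minus kidney difference was 1.01 (0.52 to 1.50).

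Procr (ENSMUSG00000027611.12, chromosome 2 from 155751117 to 155755471) encodes the endothelial protein C receptor. In the kidney it had 68 and 31 counts, 2.77 and 2.01 CPM, a log2 ratio of −0.46 (−1.12 to 0.17). In the heart it had 35 and 12 counts, 2.15 and 0.741 CPM, 2.82-fold lower, a log2 ratio of −1.50 (−2.62 to −0.55). This heart difference rested on few reads, and its interval was the widest of the set. The heart minus kidney difference of −1.04 (−2.17 to 0.09) was not detectable at this depth.

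The 12 endothelial markers gave a measure of how much vessel RNA each library held. In the kidney their sum went from 473 to 411 CPM with a median log2 ratio of −0.18, 9 of 12 were lower, and none of them differed by 1.5-fold. In the heart the sum went from 2165 to 2437 CPM, with 9 of 12 higher and 1 gene past 1.5-fold in each direction (Kdr higher, Cldn5 lower). In bulk tissue, fewer endothelial cells and less RNA of a gene per cell cannot be told apart. Taken relative to the endothelial sum in the same library, the kidney log2 change was −0.43 (−0.72 to −0.13) for Thbd and −0.79 (−1.27 to −0.31) for Tfpi. It was −0.01 (−0.50 to 0.48) for Vwf. Single endothelial markers in kidney ranged from −0.56 (Pecam1) to 0.25 (Cldn5), beside −0.63 for Thbd, which lay close to the lowest of them, and −0.99 for Tfpi. In the heart, where the endothelial sum was higher in CLP + MLT, the change relative to it was −0.18 (−0.31 to −0.05) for Thbd, −0.15 (−0.25 to −0.04) for Tfpi, −0.49 (−0.62 to −0.36) for Vwf and −1.71 (−2.65 to −0.76) for Procr. All 4 thus lay below 0 on this scale, while single heart markers ranged from −0.75 (Cldn5) to 0.91 (Kdr).

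Plat (ENSMUSG00000031538.6, chromosome 8 from 22757727 to 22782844) encodes tPA. In the kidney it had 2660 counts in CLP and 1186 in CLP + MLT, 108 and 77.0 CPM, a log2 ratio of −0.49 (−0.59 to −0.39). In the heart it had 253 and 311 counts, 15.5 and 19.2 CPM, a log2 ratio of 0.31 (0.06 to 0.55). Neither passed 1.5-fold, but the intervals lay on opposite sides of 0.

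Plau (ENSMUSG00000021822.3, chromosome 14 from 20836660 to 20843385) encodes urokinase. In the kidney it had 9025 counts in CLP and 8035 in CLP + MLT, 368 and 522 CPM, 1.42-fold higher and so within 1.5-fold, a log2 ratio of 0.50 (0.46 to 0.55). It was the only one of the 9 genes whose kidney interval lay above 0. The sum of the 9 tubule markers was also higher in kidney, 26738 and 37971 CPM, a log2 ratio of 0.51. Of the 9, 7 were above 0, 3 higher and 1 lower by 1.5-fold, and none was at 0. Most of the sum was Kap (18290 and 28550 CPM), and single markers ranged from −0.63 (Slc22a6) to 1.07 (Slc12a1). The part of tubule RNA in the kidney difference of Plau was not tested. In the heart Plau went from 31 to 172 counts, 1.90 and 10.6 CPM, 5.51-fold higher, a log2 ratio of 2.46 (1.92 to 3.08).

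Kidney tubule RNA moved with this heart difference. The 9 tubule markers summed to 401 CPM in the CLP heart and 838 CPM in the CLP + MLT heart. Kap made up 267 and 593 CPM of these sums. All 9 were higher in CLP + MLT, 6 of them at least 1.5-fold, from 0.04 to 2.45 on the log2 scale, and none was at 0. Plau in heart stood at 0.517% of its kidney level in CLP and 2.04% in CLP + MLT. The tubule markers ranged from 0.548% to 4.22% and from 0.884% to 5.81%. At the markers' median shares, the kidney level of Plau alone would give 5.66 CPM in the CLP heart and 17.1 CPM in the CLP + MLT heart, more than the measured level in each. For Thbs1 the same calculation gave 0.790 of 5.95 CPM and 1.76 of 13.2 CPM, or 13.3% and 13.4% of the measured level. For Plat it gave 10.8% and 13.1%, and for the other 6 members at most 8.90%. The part of tubule RNA in these heart differences was not tested.

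**Figure D2:**
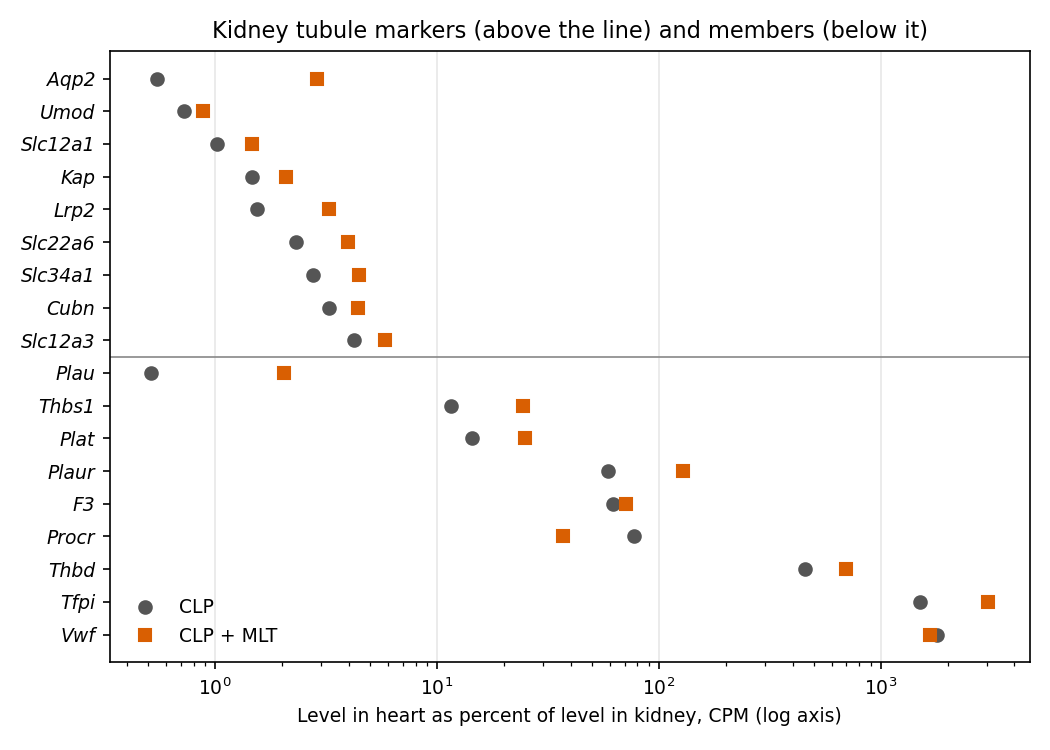
Level in heart as a percent of the level in kidney of the same treatment (CPM over CPM, log axis), for the 9 kidney tubule markers above the line and the 9 coagulation genes below it, 1 library per point without error bars. Plau lies at 0.517% and 2.04%, near the tubule markers, while Vwf (1790% and 1660%) and Tfpi (1500% and 3036%) lie far to the right.

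Plaur (ENSMUSG00000046223.10, chromosome 7 from 24462484 to 24475968) encodes the urokinase receptor, which white blood cells carry in abundance. In the kidney it had 125 counts in CLP and 40 in CLP + MLT, 5.10 and 2.60 CPM, 1.95-fold lower, a log2 ratio of −0.97 (−1.52 to −0.45). In the heart it had 49 and 54 counts, 3.01 and 3.33 CPM, a log2 ratio of 0.15 (−0.44 to 0.74). The heart minus kidney difference was 1.11 (0.36 to 1.87). The neutrophil list in kidney went from 20.8 to 16.5 CPM over 8 genes, 5 of them past the filter, 1 higher and 2 lower by 1.5-fold, with Ly6g at 0. The sum of the macrophage and monocyte list went the other way, from 112 to 174 CPM over 9 genes. Of 8 past the filter, 2 were higher by 1.5-fold and none lower, with 7 above 0. Most of the rise in the sum came from Csf1r (46.5 to 102 CPM, a log2 ratio of 1.13). Cd68 was below 0 (−0.49), and Ly6c2, which did not pass the filter, had 11 and 3 counts. The part of either cell type in the Plaur difference was not tested.

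**Figure D3:**
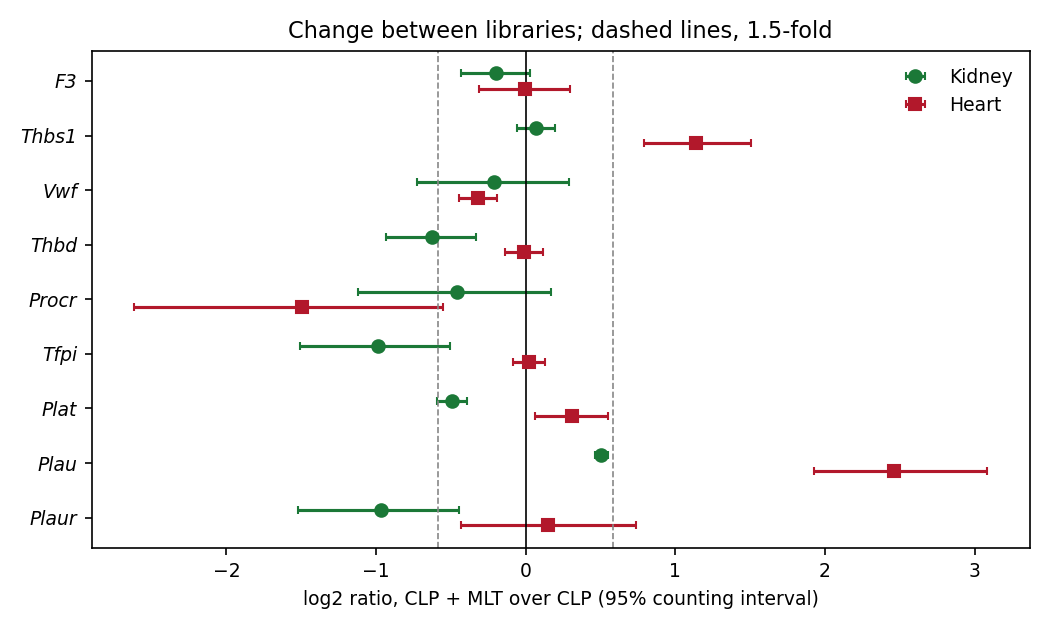
Log2 ratio (CLP + MLT over CLP) for the 9 genes in kidney (circles) and heart (squares). Bars are 95% counting intervals between 1 library and 1 library, and dashed lines mark 1.5-fold. Tfpi, Plaur and Thbd lie furthest left in kidney (−0.99, −0.97 and −0.63), Plau and Thbs1 furthest right in heart (2.46 and 1.14).

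The promoters of F3, Procr, Plaur and Tfpi are shown to let the regulatory letters of an initiator, a receptor of each arm and the inhibitor be read side by side. Each is the 250 bases before the RefSeq start (GRCm38.p6), 5′ to 3′ on the gene's strand, and capitals mark TGACTCA or its reverse complement TGAGTCA, the core site of the AP-1 factors Fos and Jun.
F3, chr3:121723287-121723536, plus strand: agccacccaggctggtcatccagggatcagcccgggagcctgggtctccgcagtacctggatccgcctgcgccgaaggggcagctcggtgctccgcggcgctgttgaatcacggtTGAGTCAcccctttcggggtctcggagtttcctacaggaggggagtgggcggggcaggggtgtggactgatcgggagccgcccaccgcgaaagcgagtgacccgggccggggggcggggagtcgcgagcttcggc
Procr, chr2:155750967-155751216, plus strand: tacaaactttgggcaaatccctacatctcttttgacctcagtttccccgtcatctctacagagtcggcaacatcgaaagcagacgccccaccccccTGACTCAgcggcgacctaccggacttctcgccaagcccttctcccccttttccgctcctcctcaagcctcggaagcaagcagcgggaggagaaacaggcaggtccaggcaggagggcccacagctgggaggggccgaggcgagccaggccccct
Plaur, chr7:24462233-24462482, plus strand: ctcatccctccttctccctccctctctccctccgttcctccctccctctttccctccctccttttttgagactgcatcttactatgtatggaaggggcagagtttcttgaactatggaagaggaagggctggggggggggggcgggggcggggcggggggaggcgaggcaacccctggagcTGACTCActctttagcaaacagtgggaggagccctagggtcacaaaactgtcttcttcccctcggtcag
Tfpi, chr2:84476760-84477009, minus strand: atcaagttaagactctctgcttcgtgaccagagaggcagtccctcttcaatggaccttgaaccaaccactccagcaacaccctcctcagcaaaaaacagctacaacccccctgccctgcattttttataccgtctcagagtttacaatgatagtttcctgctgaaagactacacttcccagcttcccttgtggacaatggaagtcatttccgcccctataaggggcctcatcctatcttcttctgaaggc

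The AP-1 letters occurred once each in the windows of F3 (positions −135 to −129 from the start), Procr (−154 to −148) and Plaur (−69 to −63), against 4.46% of the 32851 promoter windows in the table. Neither window of Tfpi held them, the window of its other start lying at chr2:84474175-84474424. The looser NF-kB form GGNNTTTCC occurred in the F3 window at −112 to −104 and in 4.93% of all windows, and GGGCGG, the letters of the Sp1 site, occurred 3 times in F3, 3 times in Plaur and once in each window of Tfpi (32.7% of all windows). In both cases either strand was searched, and the sites did not overlap the AP-1 letters. The kidney log2 ratios of the 3 genes with the AP-1 letters were −0.20 (F3), −0.46 (Procr) and −0.97 (Plaur), and that of Tfpi was −0.99, so the match did not separate the genes by their ratio. The motifs were chosen after the sequences were seen, and a match is a description only.

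Ratios between members within 1 library do not depend on the scaling of libraries. The pairs were chosen after the values were seen. In the kidney, F3 over Tfpi per length went from 6.59 in CLP to 11.4 in CLP + MLT, a log2 change of 0.79 (0.26 to 1.32). The initiator was thus more abundant relative to its inhibitor in the CLP + MLT library. F3 over Thbd went from 2.00 to 2.69, a log2 change of 0.43 (0.06 to 0.80). In the heart neither ratio moved detectably, with −0.03 (−0.34 to 0.28) for F3 over Tfpi and 0.01 (−0.32 to 0.33) for F3 over Thbd. Thbd over Procr had a log2 change of −0.17 (−0.85 to 0.51) in kidney. In heart it went from 15.5 to 44.4, a change of 1.52 (0.57 to 2.48), which rested on the few reads of Procr.

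The ratio of the proteases was higher in the CLP + MLT library of both tissues. Plau over Plat went from 8.95 to 17.9 in kidney, a log2 change of 1.00 (0.89 to 1.11), and from 0.323 to 1.46 in heart, a change of 2.17 (1.57 to 2.78). In kidney Plau was higher and Plat lower, whereas in heart both were higher. These ratios are not free of tubule RNA in the heart libraries. At the tubule markers' median shares, kidney Plau alone would give 5.66 and 17.1 CPM in heart, above the measured 1.90 and 10.6 CPM. The part of tubule RNA in the heart ratio was not tested. Plau over its receptor Plaur went from 79.8 to 222 in kidney, a change of 1.48 (0.96 to 1.99). In heart it went from 0.699 to 3.52, a change of 2.33 (1.55 to 3.12), with the same limit from tubule RNA.

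Other genes of clotting, fibrinolysis and platelet adhesion were taken from 10 lists written from general knowledge, 65 genes in all. Past the filter in kidney were 49, of which 8 were at least 1.5-fold higher and 14 lower, with a median log2 ratio of −0.24 (5 higher and 21 lower with scaling by library size only). Past it in heart were 48, of which 4 were higher and 9 lower, with a median of −0.14. The background shares for these directions were given above.

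**Figure D4:**
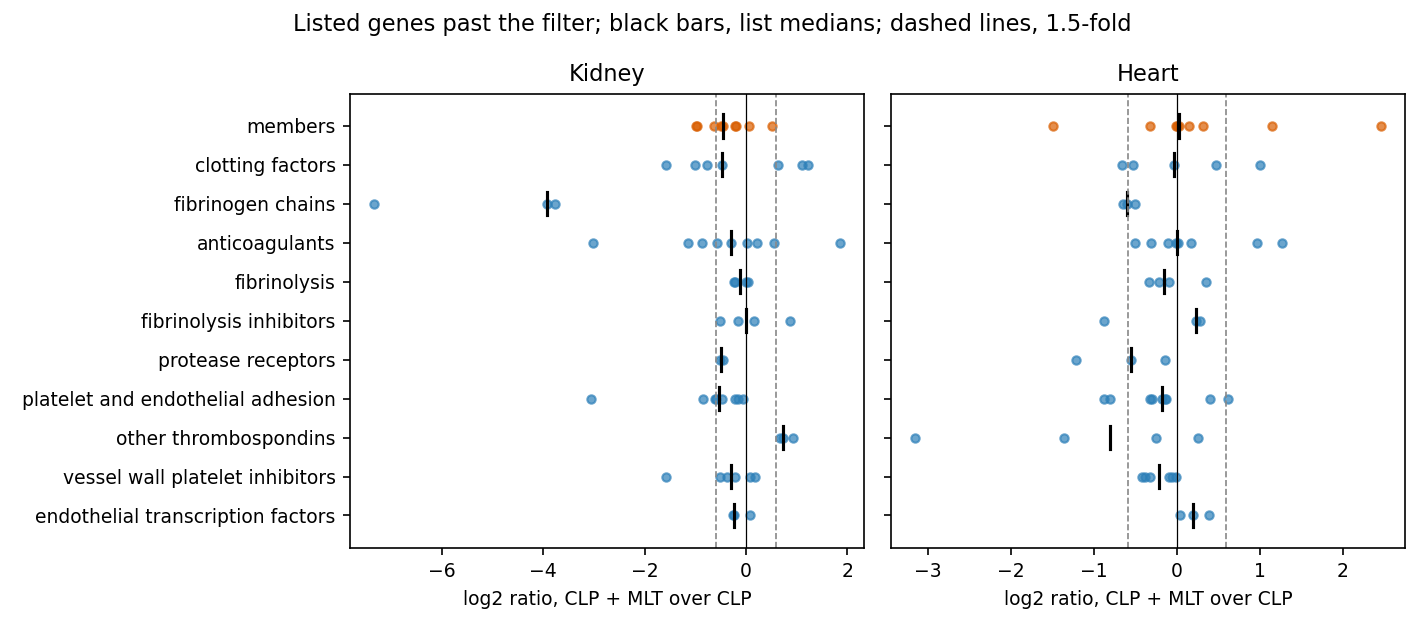
Log2 ratio (CLP + MLT over CLP) for the 9 members and for each listed gene past the filter, in kidney (left) and heart (right), 1 library per group. Black bars are medians and dashed lines mark 1.5-fold. The fibrinogen chains lie furthest left in kidney (median −3.93), and the other thrombospondins lie to the right there (median 0.73).

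The 3 fibrinogen chains, the substrate of thrombin, were all lower in the CLP + MLT kidney, with log2 ratios of −3.93 (Fga), −7.34 (Fgb) and −3.77 (Fgg). In heart they were −0.50, −0.65 and −0.60, of which Fgb and Fgg passed 1.5-fold. The hepatocyte list moved with them in heart, with its sum of 27.6 CPM in CLP falling by 0.98 on the log2 scale over 7 genes, all 5 past the filter being lower by 1.5-fold and Cps1 at 0. In kidney it went from 63.8 to 52.5 CPM, none of 3 past the filter differed by 1.5-fold, and Ahsg, Serpina3k and Mup3 were at 0.

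Among 13 clotting factors, 7 passed the filter in kidney, 3 higher and 3 lower by at least 1.5-fold. F13a1, the catalytic chain of the factor that crosslinks fibrin and a product of macrophages and platelets, had 91 and 19 counts in kidney (log2 ratio −1.57) and 982 and 618 in heart (−0.66). Klkb1, which encodes prekallikrein, had 65 and 96 counts in kidney, a ratio of 1.23. In heart, Kng2, a kininogen gene, had 128 and 254 counts (1.00), but its heart level was 1.43% and 1.83% of that in kidney, in the range of the tubule markers.

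Of 12 anticoagulant genes, 9 passed the filter in kidney, 1 higher and 3 lower by at least 1.5-fold. Tfpi2, a relative of Tfpi, had 107 counts in the CLP kidney and 8 in CLP + MLT, a log2 ratio of −3.01 (−4.32 to −2.04). Both inhibitor genes of this family were thus lower in that library. Proz, which encodes protein Z, a cofactor in the inhibition of factor Xa, went the other way with 21 and 49 counts (1.86), and in heart it had 11 and 27 (1.27). Proc, which encodes protein C, had 45 and 88 counts in heart (0.97), at 1.54% and 2.06% of its kidney level.

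Of 5 inhibitors of fibrinolysis, 4 passed the filter in kidney, 1 higher by 1.5-fold and 0 lower, and 3 passed it in heart, 0 higher and 1 lower. Serpine2, which encodes protease nexin, had 842 and 477 counts in kidney (a log2 ratio of −0.15) and 370 and 199 in heart, where it was lower by 1.5-fold (−0.88, −1.14 to −0.63). Serpinf2, the gene of the plasmin inhibitor, stood at 0.16 and 0.23 in kidney and heart. Serpini1, the gene of neuroserpin, was at −0.51 and 0.27. Cpb2, whose product trims plasminogen binding sites from fibrin, had 19 and 22 counts in kidney (a log2 ratio of 0.86, −0.07 to 1.85) and 4 and 6 in heart, and Serpinb2 had 0 in every library. Of the 5 plasminogen and plasminogen receptor genes, none of 4 past the filter differed by 1.5-fold in either tissue. The largest values there were −0.24 for S100a10 and −0.22 for Hrg in kidney, and 0.34 for Plgrkt and −0.34 for S100a10 in heart.

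The 2 thrombin and protease receptors past the filter in kidney did not pass 1.5-fold, with −0.51 for F2rl1 and −0.46 for F2r. In heart, F2rl1 had 24 and 10 counts (−1.21) and F2rl3 had 15 and 10 (−0.55, −1.89 to 0.68). Of 10 adhesion genes, 8 passed the filter in kidney, 4 of them lower by at least 1.5-fold and 0 higher. Itgb3, the integrin chain that binds fibrinogen on platelets, had 71 and 5 counts there (−3.06) and 54 and 29 in heart (−0.88). Icam1, an adhesion molecule of activated endothelium, had 1422 and 499 counts in kidney (−0.84), and Selp, the gene of P-selectin, had 18 and 10 in heart (−0.81). The platelet list in kidney summed to 16.1 and 19.4 CPM, with 4 of 10 genes past the filter, 1 of them higher and none lower by 1.5-fold, and with Gp1bb, Gp6 and Treml1 at 0.

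Among the 4 other thrombospondin genes, in kidney 3 of 3 past the filter were higher, led by Thbs3 with 126 and 151 counts (0.93, 0.58 to 1.29) and Comp with 17 and 18 (0.73, −0.29 to 1.80). In heart 2 of 4 were lower by at least 1.5-fold, Comp with 22 and 2 counts (−3.16) and Thbs4 with 68 and 26 (−1.36). Thbs2 had 98 and 98 counts in kidney (0.67) and 234 and 276 in heart (0.25, −0.01 to 0.51), beside 0.07 and 1.14 for Thbs1. Of the vessel wall genes that restrain platelets, Entpd1, which encodes the ATP and ADP splitting enzyme CD39, was lower in kidney with 264 and 55 counts (−1.58) and had 494 and 366 in heart (−0.42). Nos3, the endothelial nitric oxide synthase gene, was at −0.51 in kidney, and Ptgis, the prostacyclin synthase gene, was at −0.39 in heart. The endothelial factors Erg and Klf4 were at −0.25 and −0.23 in kidney and at 0.38 and 0.20 in heart, and none of the 3 genes on their list passed 1.5-fold.

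For each member past 1.5-fold in a tissue, the genes with the nearest pattern were sought. The measure was the smallest Euclidean distance between log2 CPM, centred per gene, over 4 libraries. The 11797 genes compared averaged at least 100 counts over the 4 libraries. With so few libraries many genes can lie close by. Thbd lay nearest to Man1c1, Zcchc24 and Flt1, an endothelial VEGF receptor gene (distances 0.066, 0.11 and 0.15). Plau lay nearest to Cwh43, Aadat and Gm45875 (0.15, 0.16 and 0.23). In heart these had 1 and 9, 7 and 35, and 1 and 7 counts, and they passed the limit through their kidney counts. The heart part of these distances thus rested on few reads. Plaur lay nearest to Sirpa, Abcd3 and Atp1b2 (0.12, 0.12 and 0.14). The nearest to Tfpi were Depp1, Adamts7 and Inka2 (0.22, 0.35 and 0.37). Those to Procr were Fkbp5, a glucocorticoid-responsive gene, Tstd3 and Ndufs4 (0.25, 0.30 and 0.31). Those to Thbs1 were Fzd5, Irs2 and Lepr (0.16, 0.25 and 0.26).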

How the data were processed

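Total RNA was sequenced after poly-A selection. The authors trimmed reads with trim-galore, aligned them to mm10 with HISAT2 2.1.0 and, per the submitters' processing notes, used HTSeq, and deposited raw counts per gene. The sources state neither strand setting nor annotation for the counting. The 5 totals that name no gene were left out of library sizes. Reads on no gene made up between 52.1% and 52.6% of the reads placed on a gene or on none.

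Names and exon lengths came from GENCODE M21 (GRCm38, the build of mm10), which matched 55141 of 55401 identifiers. Genes averaging 10 counts or more in a tissue were kept and scaled by TMM in edgeR 4.0.16 under R 4.3.3, with DESeq2 1.42.0 size factors as an alternative. A prior count of 0.5, in proportion to library size, was added before log2 ratios were taken. The study used edgeR with limits on fold and p-value. Single libraries give no estimate of dispersion, so only its 1.5-fold limit was used. Intervals cover counting error only, since single libraries give no spread between mice. They treat each read as an independent draw, which PCR copies are not, so they may be too narrow even for counting error. Those of differences and within-library ratios are normal approximations from the summed counting variances. The remaining steps ran in Python 3.11.15 with scipy 1.17.1. On simulated counts with counting error only, 191 of 198 genes changed 2-fold were recovered past 1.5-fold in kidney over 16932 genes, where 715 unchanged genes also passed, and 188 of 194 in heart over 15883 genes, where 720 passed. The intervals held the true ratio for 95.6% and 95.9% of genes.

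The members, lists and tests were chosen with earlier results of these data known. The text names all members, the fibrinogen chains, the fibrinolysis inhibitors other than 1 on the list that is not reported here, the 2 genes of each other list with the largest ratio in each tissue, and the 3 genes nearest to each member past 1.5-fold. Genes named under markers or at 0 were chosen after their values were seen. Plaa was kept on the list of vessel wall genes although it is not known to restrain platelets. Alternatives were other scalings, filters, prior count and fold limits.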

Additional observations from a re-analysis of the deposited data

Results flagged for a closer look

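The log2 ratio of Plat, the gene of tPA, was higher in heart than in kidney by 0.80 (0.54 to 1.06), because the CLP + MLT library was lower in kidney (−0.49) and higher in heart (0.31), each beyond counting error. With 1 library per group, this difference between the tissues was not tested. Larger ones in the same direction were those of Plau (1.96, 1.41 to 2.51), Plaur (1.11), Thbs1 (1.07) and Tfpi (1.01). The share of tubule RNA in heart was larger in the CLP + MLT library, and at the markers' median share it came to 10.8% and 13.1% of the heart level of Plat.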

How the results depend on the processing

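No paired analysis was possible because each group had 1 library, and no replicate could be left out for the same reason. Of 90 log2 ratios of members under other scalings and a prior count of 5, 87 stayed within the counting interval. The others came with scaling by library size only in kidney: Plat (−0.69), Plau (0.31) and Thbs1 (−0.13), beside a shift of all genes to −0.19. All 27 heart minus kidney differences under other scalings stayed within their intervals. The members lower in kidney were 5 under library size only and 0 with a fold limit of 2 or with the whole interval past 1.5-fold. The member lower in heart, Procr, did not pass a filter of 50 counts or the whole interval, which left 0. Over all kidney genes, higher and lower counts were 1149 and 3172 under library size only, 4711 and 5984 without a filter, 1002 and 1012 with a mean of 50 counts, 699 and 830 with a fold of 2, and 604 and 576 by the whole interval. Over all heart genes they were 5083 and 5378 without a filter, 727 and 1143 with a mean of 50, 730 and 829 with a fold of 2, and 459 and 707 by the whole interval. Of the listed genes in kidney, 5 were higher under library size only, 4 with a mean of 50, 3 with a fold of 2 and 3 by the whole interval, and 9 were lower with a fold of 2. In heart, 8 were higher without a filter. With a mean of 50, 2 were higher and 4 lower, and with a fold of 2, or by the whole interval, 1 was higher and 3 lower. A stricter filter or limit counts fewer genes by construction and no filter counts more, and for scaling by library size the cause was not tested.

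Depth limits mainly Procr, Vwf and Plaur in kidney and Procr and Plaur in heart, whose mean counts over the libraries of that tissue are the lowest of the set.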

Other observations

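Several liver-made parts of the cascade had few counts. F9, F11 and F12 had at most 10 counts in any library, and the prothrombin gene F2 had between 2 and 30. F2 passed the filter in kidney only, with 22 and 30 counts and a log2 ratio of 1.10 (0.28 to 1.98). Serpina5, Serpinb2 and F2rl2 were at 0 in all 4 libraries, which allows a level of up to 0.122 to 0.195 CPM by a floor of 3 counts per library. F5, which encodes the cofactor of factor Xa, did not pass the filter on low counts. It had 19 counts in the CLP kidney and 0 in the CLP + MLT kidney, at least 3.98-fold lower with that floor, and it had 3 and 9 counts in heart. F7 and F10 were higher in heart (34 and 47 counts, and 44 and 30) than in kidney, where neither had more than 2 counts. The values of these genes were known when they were picked.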
